A study of Mus musculus with 6 samples.

Results

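Insig1, Idi1, Acat2, Stard4 and Npc1l1 are genes of sterol synthesis, its feedback control and sterol transport. These 5 genes were taken by symbol from a table of 1228 genes measured by RNA sequencing in the mouse microglial line Bv2, which is immortalised and wild type by its label. The 3 OGD/R libraries came from cells kept for 30 min in nitrogen and then deprived of oxygen and glucose for 2 h at 1% oxygen, without serum, before 24 h of reperfusion in standard medium. The 3 control libraries came from cells labelled only as control, whose handling during those hours is not described. The labels also speak of an earlier infection without saying which cells it concerned, so an effect of infection and one of OGD/R cannot be told apart if only one group was infected. Nothing says that the libraries of a group came from separate cultures, so the spread between them may be technical.

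The 5 genes were chosen because they were higher after OGD/R in this table, and the table itself holds only genes whose group means differed about 2-fold or more. By group means, 605 of its genes were higher in OGD/R and 623 were lower, and the log2 ratio of means closest to 0 was 1.03 above it and -0.97 below it. The differences of the 5 genes between OGD/R and control are therefore given as a description, and nothing rests on their place in the fit across the table. The values are FPKM, fragments normalised to library size and, by the recovery of counted units described below, to the merged exon length of the gene. Levels can be set against each other across genes on that measure of length. In RNA from a bulk culture, a change in the share of cells that express a gene and a change in its RNA per cell cannot be told apart.

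Cholesterol is built from acetyl-CoA through the mevalonate pathway in the cytosol and the endoplasmic reticulum. Sterol regulatory element-binding proteins (SREBPs) are membrane-bound transcription factors that switch the pathway on when sterols run short, and the Insig proteins hold them in the endoplasmic reticulum when sterols are plentiful. Cells also take up cholesterol in lipoproteins, export it from lysosomes, move it between membranes with carrier proteins and store it as esters. In microglia, cholesterol handling is best known for the clearance of myelin debris, which is rich in the lipid.

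In the GENCODE annotation on GRCm38, Insig1 (ENSMUSG00000045294) lies on chromosome 5 from 28071363 to 28078662 on the plus strand, and Idi1 (ENSMUSG00000058258) on chromosome 13 from 8885501 to 8892451, also on the plus strand. Acat2 (ENSMUSG00000023832) lies on chromosome 17 from 12942890 to 12960747 and Npc1l1 (ENSMUSG00000020447) on chromosome 11 from 6211013 to 6230143, both on the minus strand. All 5 genes are protein-coding, with 2544 to 5586 nt of merged exons. The 300 bases around the transcription start, from 250 before it to 50 after it, were available from RefSeq (GRCm38.p6) for 4 of the 5 genes, all but Stard4. They are shown for the 3 genes that had both a promoter entry and a clearly measurable level, because SREBPs and their partner factors act from such windows. Capitals mark matches on either strand to the CCAAT box (CCAAT), the E-box (CACGTG) and the GC box (GGGCGG), which do not overlap here. The windows are chr5:28071162-28071461 on the plus strand, chr13:8885356-8885655 on the plus strand and chr17:12960676-12960975 on the minus strand.
Insig1: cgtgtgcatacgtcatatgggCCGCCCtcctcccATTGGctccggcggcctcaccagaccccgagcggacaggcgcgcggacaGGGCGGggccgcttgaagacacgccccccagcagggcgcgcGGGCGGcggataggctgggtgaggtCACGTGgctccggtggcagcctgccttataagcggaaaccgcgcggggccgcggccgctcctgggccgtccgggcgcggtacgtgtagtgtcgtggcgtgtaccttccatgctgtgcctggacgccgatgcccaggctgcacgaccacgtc
Idi1: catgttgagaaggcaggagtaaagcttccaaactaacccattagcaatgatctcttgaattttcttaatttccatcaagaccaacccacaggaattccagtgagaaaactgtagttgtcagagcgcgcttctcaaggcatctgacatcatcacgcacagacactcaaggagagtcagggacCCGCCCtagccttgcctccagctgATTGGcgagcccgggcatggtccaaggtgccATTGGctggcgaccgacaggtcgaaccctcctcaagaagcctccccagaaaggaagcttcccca
Acat2: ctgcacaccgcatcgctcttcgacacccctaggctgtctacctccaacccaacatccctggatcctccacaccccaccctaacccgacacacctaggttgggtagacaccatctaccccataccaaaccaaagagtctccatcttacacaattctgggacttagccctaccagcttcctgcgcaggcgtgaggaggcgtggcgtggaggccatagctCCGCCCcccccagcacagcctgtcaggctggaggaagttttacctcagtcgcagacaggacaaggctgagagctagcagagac

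The Insig1 window held 1 CCAAT box, 1 E-box and 3 GC boxes, with the E-box beginning 101 bases before the RefSeq start. The Idi1 window held 2 CCAAT boxes, beginning 45 and 14 bases before the RefSeq start, and 1 GC box. The Acat2 window held 1 GC box, and the window of Npc1l1, on chromosome 11 from 6230196 to 6230495, held 1 CCAAT box. None of the 4 windows held the SREBP consensus TCACNCCAC on either strand, which says only that these letters are absent from these bases. The RefSeq start lies 105 nt inside the GENCODE gene for Idi1, 49 nt inside it for Insig1 and 22 nt inside it for Acat2, and 102 nt before it for Npc1l1. Both CCAAT boxes of Idi1 thus lie inside the gene as GENCODE draws it. Over the 32851 RefSeq windows of the same length, 37.4% held a CCAAT box, 7.15% an E-box, 35.7% a GC box and 1.24% the SREBP consensus. The windows differed in base composition, with a GC content of 71.7% for Insig1, 58.7% for Acat2, 52.3% for Idi1 and 51.0% for Npc1l1.

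The feedback regulator Insig1 was about 3 times higher after OGD/R. Insig1 retains the SREBPs and their escort protein in the endoplasmic reticulum and is itself a target of the SREBPs. It had 27.66, 27.34 and 27.72 FPKM in OGD/R replicates 1 to 3, against 8.27, 10.19 and 8.94 FPKM in control replicates 1 to 3. The OGD/R libraries were almost level with each other, at 27.6 ± 0.204 FPKM, and every one lay above all control libraries, which averaged 9.13 ± 0.974 FPKM (SD, n = 3 each). The ratio of means was 3.02, and the closest pair of libraries across the groups still differed 2.68-fold. On the log2(FPKM + 1) scale, which understates the change of low genes, the difference was 1.50 ± 0.10 (SE, limma). The steps between low FPKM values gave the number of counted units per library, by which Insig1 rested on about 685 to 742 units in OGD/R and 196 to 260 in control.

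In the mevalonate pathway, both synthesis enzymes among the 5 genes were higher after OGD/R. Acat2 is the cytosolic thiolase that joins acetyl-CoA units at the start of the pathway. It is not the sterol esterifying enzyme of the same older protein name, which is Soat2. Acat2 had 15.86, 17.08 and 20.91 FPKM in OGD/R and 8.46, 5.43 and 4.84 FPKM in control replicates 1 to 3. The groups did not overlap, but Acat2 varied the most of the 4 well-measured genes, and control replicate 1 stood above the other controls. Its means were 18.0 ± 2.64 FPKM in OGD/R and 6.24 ± 1.94 FPKM in control (SD, n = 3 each), a ratio of 2.88 and a log2 difference of 1.41 ± 0.21 (SE). Acat2 rested on about 323 to 460 units in OGD/R and 94 to 165 in control.

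Idi1 is the isomerase that converts isopentenyl diphosphate to dimethylallyl diphosphate, the pair of building blocks of all isoprenoids. It had 25.58, 23.99 and 22.39 FPKM in OGD/R and 8.04, 7.72 and 7.89 FPKM in control replicates 1 to 3. Its control libraries were nearly level, and no OGD/R library came close to them. The means were 24.0 ± 1.60 FPKM in OGD/R and 7.88 ± 0.160 FPKM in control (SD, n = 3 each), a ratio of 3.04 and a log2 difference of 1.49 ± 0.09 (SE). Idi1 rested on about 679 to 718 units in OGD/R and 211 to 223 in control.

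Acat2 and Idi1 share sequence with other loci. Of the windows of 150 nt, the read length, in the longest annotated transcript of Acat2, 25.4% also occurred in transcripts of its paralog Acat3, which lies 2289 nt away. For Idi1, 18.6% of such windows occurred in the locus Gm13502. The sources used here do not say how reads that match both places were counted, so both levels are uncertain. The shares of windows do not bound the error in level. Insig1, Stard4 and Npc1l1 shared 0 such windows with other genes. Idi1 also overlaps Gm48574 on the opposite strand over 323 nt. Acat3, Gm13502 and Gm48574 are not analysed here.

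The transport genes among the 5 differed widely in level. Stard4 (ENSMUSG00000024378) is a minus-strand gene of chromosome 18, spanning 33199355 to 33213862. It encodes a small soluble carrier that moves cholesterol between membranes. It had 14.16, 15.26 and 12.48 FPKM in OGD/R and 6.56, 5.64 and 4.74 FPKM in control replicates 1 to 3. The groups did not overlap, and the closest OGD/R and control libraries differed 1.90-fold. The means were 14.0 ± 1.40 FPKM in OGD/R and 5.65 ± 0.910 FPKM in control (SD, n = 3 each). Their ratio of 2.47 was the lowest of the 5 genes, with a log2 difference of 1.18 ± 0.14 (SE).

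Npc1l1, the cholesterol importer of the intestinal brush border and the target of ezetimibe, was near the floor of the measurement. It had 0.20, 0.11 and 0.13 FPKM in OGD/R and was listed at 0.00, 0.03 and 0.00 FPKM in control replicates 1 to 3. These values correspond to 7, 4 and 5 counted units in OGD/R and to 0, 1 and 0 units in control, where 1 unit is worth 0.0259 to 0.0294 FPKM. The sums were 16 units in OGD/R (95% exact Poisson interval 9.15 to 26.0) and 1 unit in control (0.0253 to 5.57). The ratio per counted unit of library was 15.0, with an interval of 2.33 to 628 that covers counting error only. It does not allow for the choice of Npc1l1 as a gene higher in this contrast, so it is no test of a difference. A count of 0 allows up to 3 units by a 1-sided 95% limit, unlike the intervals above, which have a lower and an upper limit. These 3 units are worth 0.0878 FPKM in control replicate 1 and 0.0882 FPKM in control replicate 3. The size of the Npc1l1 difference is therefore hardly fixed by these data, and its log2 difference of 0.18 with a pseudocount of 1 was 1.16 with 0.1 and 3.26 with 0.01. No gene of a list of 10 enterocyte and hepatocyte markers, cell types in which Npc1l1 is best known, was in the table. Since the table holds only genes whose group means differed, the absence of these markers says nothing about such cells.

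**Figure D1:**
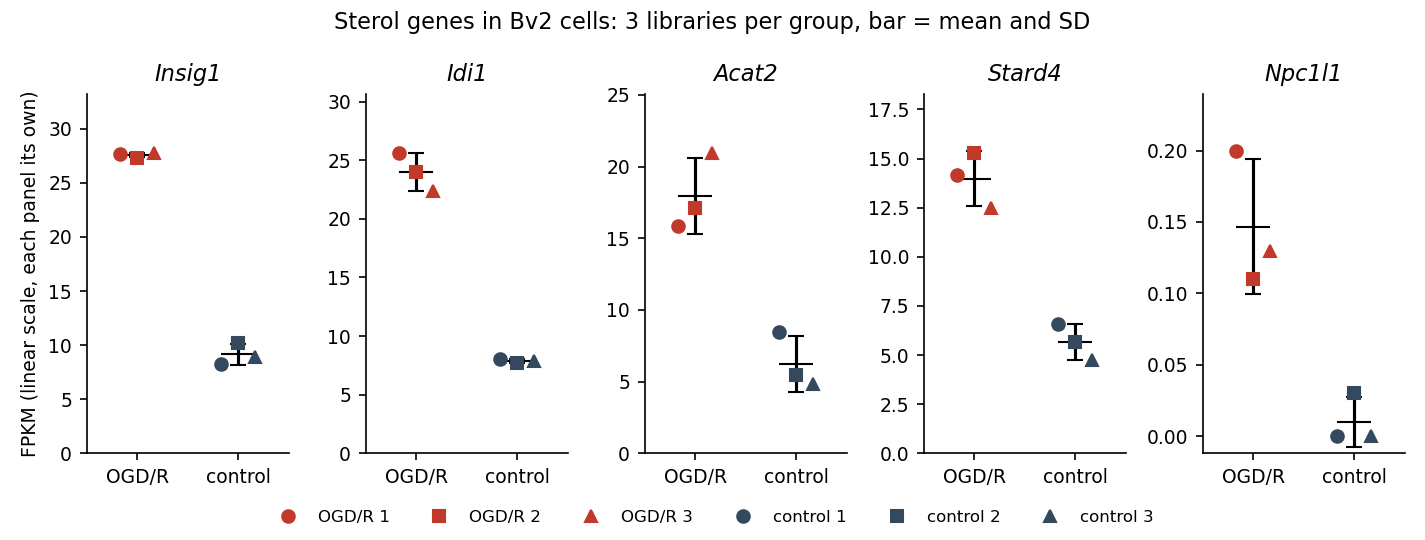
FPKM (linear axes, one scale per panel) of the 5 genes in the 3 OGD/R libraries (red, left) and the 3 control libraries (dark, right), with symbols for replicate numbers and black bars for the mean and SD. In each panel the OGD/R points lie above the control points, and Npc1l1 stays at or under 0.20 FPKM.

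The order of the levels was the same in both groups, running from Insig1 through Idi1, Acat2 and Stard4 to Npc1l1. In OGD/R no neighbours in this order overlapped: Insig1 lay at 27.34 to 27.72 FPKM, Idi1 at 22.39 to 25.58, Acat2 at 15.86 to 20.91 and Stard4 at 12.48 to 15.26. In control, Idi1 at 7.72 to 8.04 FPKM overlapped with Acat2 at 4.84 to 8.46, and Acat2 overlapped with Stard4 at 4.74 to 6.56, so those neighbours did not differ beyond their spread. Insig1, at 8.27 to 10.19 FPKM, lay above Idi1 in control too, by a small margin. Idi1 and Acat2 share 18.6% and 25.4% of their read-length windows with other loci, and Insig1 and Stard4 share 0. The places of Idi1 and Acat2 in this order, also that of Idi1 below Insig1, thus depend on how shared reads were counted, which is not known.

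Ratios between the 4 well-measured genes within a library do not depend on how the library was scaled. Insig1 over Idi1 was 1.08, 1.14 and 1.24 in OGD/R and 1.03, 1.32 and 1.13 in control. Idi1 over Stard4 was 1.57 to 1.81 in OGD/R and 1.23 to 1.66 in control. In all 6 pairs of these genes the ranges of the ratio in OGD/R and control overlapped, so the proportions between the genes did not separate the groups although each level did. Control replicate 1 had the lowest value of the control group for Insig1 over Acat2, at 0.978, where the other controls had 1.88 and 1.85. That library also lay farthest from its group mean over all tested genes, with a root mean square deviation of 0.338 on the log2(FPKM + 1) scale, against 0.188 to 0.275 for the other 5 libraries.

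Of the 5 genes, 4 had a mean of at least 1 FPKM over the 6 libraries and entered the fit across the table. All 4 passed an adjusted p of 0.05 in limma, beside 46.6% of the 852 tested genes that were called higher and 97.3% called in either direction. Since the genes and the table were chosen on this same contrast, nothing is read from that count. All 5 had groups that did not overlap, with OGD/R above control, as did 48.4% of the table. The median log2 difference of the 4 tested genes was 1.45, against 1.04 for all genes called higher and -0.68 for all tested genes. These medians are on the log2(FPKM + 1) scale, which understates the change of low genes, so nothing is read from the gap. By ratio of means, among the 584 higher genes with a control mean above 0, Idi1 ranked 206, Insig1 211, Acat2 238 and Stard4 351, all well inside the range of the table. Npc1l1 ranked 12, on the strength of a control mean of 0.010 FPKM.

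**Figure D2:**
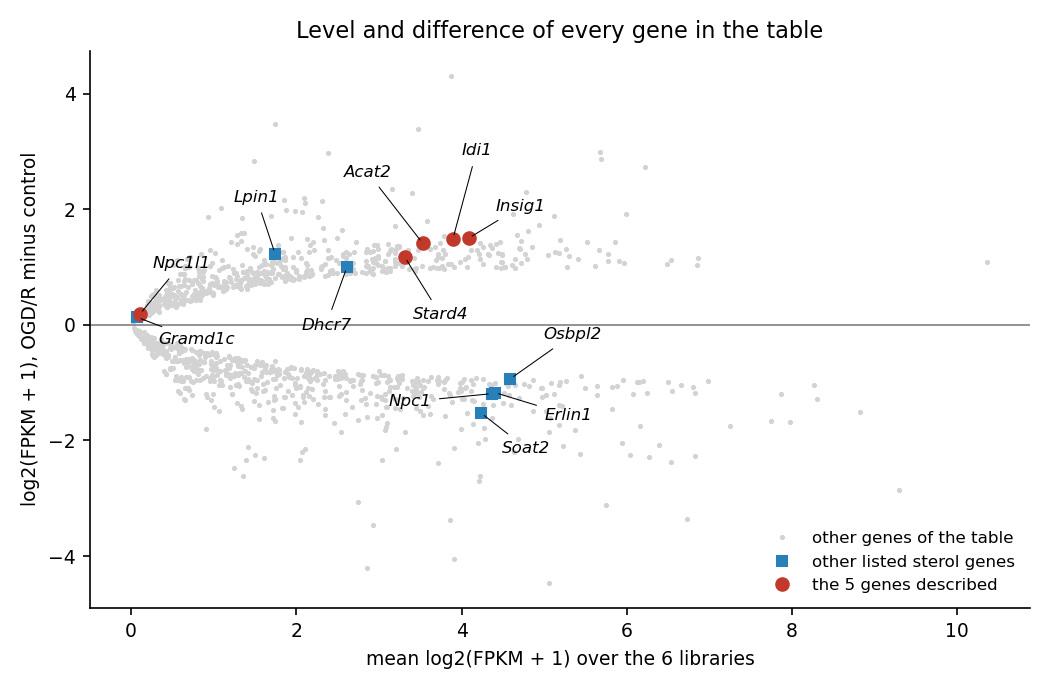
Difference between OGD/R and control in log2(FPKM + 1) against the mean log2(FPKM + 1) over the 6 libraries for each of the 1228 genes. The 5 genes are in red and 7 other genes of the sterol and fatty acid lists in blue. Insig1, Idi1, Acat2 and Stard4 lie among the upper genes between 1.18 and 1.50, and Npc1l1 and Gramd1c lie near the origin.

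The rest of sterol metabolism, with SREBP targets of fatty acid synthesis, was read from 6 lists with 120 genes. Of these genes, 12 were in the table and 10 were tested. All are called listed sterol genes here, although Lpin1 comes from the fatty acid list. Of these 10, 4 are among the chosen genes, which were higher by choice. Of the other 6, 2 were called higher, Dhcr7 and the fatty acid list gene Lpin1, and 4 lower in OGD/R (limma). Over all 852 tested genes, 46.6% were called higher and 50.7% lower. All 7 listed genes outside the chosen ones had groups that did not overlap, 3 with OGD/R above control and 4 below, where 48.4% of the table lay above and 46.5% below. The other 108 listed genes are not analysed here, and no statement about them follows. The table holds only genes whose group means differed in this same contrast. The calls and adjusted p-values of the listed genes, here and below, are therefore a description and no test of a difference.

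Among 22 enzymes of cholesterol synthesis, 3 were in the table, the chosen Acat2 and Idi1 and, beside them, Dhcr7, which was called higher. Dhcr7 is the reductase that turns 7-dehydrocholesterol into cholesterol, at the far end of the pathway from Acat2. It had 7.79, 7.43 and 7.72 FPKM in OGD/R and 2.96, 3.67 and 3.38 FPKM in control replicates 1 to 3. The groups were well apart, with a log2 difference of 1.00 ± 0.10 (SE, limma, adjusted p = 2.0e-04) and a ratio of means of 2.29. Lpin1, a phosphatidate phosphatase and the 1 gene in the table from a list of 21 SREBP targets of fatty acid and glyceride synthesis, was also higher. It had 4.33, 4.11 and 3.95 FPKM in OGD/R and 0.99, 1.38 and 1.21 FPKM in control, a log2 difference of 1.23 ± 0.11 (SE, limma, adjusted p = 1.5e-04).

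Among the listed genes of SREBP control and of sterol uptake and transport, Erlin1, Npc1 and Osbpl2 were lower, while Insig1 and Stard4 were higher. Among 17 genes of SREBP control, 2 were in the table, Insig1 above and Erlin1 below control. Erlin1, a cholesterol-binding protein of the endoplasmic reticulum known to restrain SREBP activation, had 12.20, 12.59 and 14.56 FPKM in OGD/R and 24.27, 32.71 and 36.42 FPKM in control replicates 1 to 3. All OGD/R libraries lay below all controls, with a log2 difference of -1.17 ± 0.17 (SE, limma, adjusted p = 6.5e-04).

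Among 25 genes of sterol uptake and transport, 5 were in the table. Of those outside the chosen genes, Npc1 and Osbpl2 were tested, and both were called lower. Npc1, which exports cholesterol from late endosomes and lysosomes and is the relative after which Npc1l1 was named, had 13.60, 13.05 and 11.62 FPKM in OGD/R and 36.25, 26.92 and 28.58 FPKM in control replicates 1 to 3. Its groups did not overlap, and the log2 difference was -1.19 ± 0.14 (SE, limma, adjusted p = 3.1e-04). Npc1 is overlapped by the antisense gene Gm15956 over 4908 nt, which was also in the table and lower, at 19.60, 11.29 and 19.77 FPKM in OGD/R and 52.75, 44.21 and 47.01 FPKM in control. The protein-coding gene Rmc1, not analysed here, also overlaps Npc1 by 967 nt on the opposite strand. No source used here says whether strand was used in counting, so reads of the overlapping genes may not have been kept apart. Osbpl2, an oxysterol-binding protein relative that carries cholesterol towards the plasma membrane, averaged 16.4 ± 0.370 FPKM in OGD/R and 32.4 ± 2.28 FPKM in control (SD, n = 3 each; limma, adjusted p = 1.9e-04). Gramd1c, a sterol transfer protein of contacts between the endoplasmic reticulum and the plasma membrane, was as low as Npc1l1, with 7, 3 and 3 counted units in OGD/R and 0, 1 and 0 in control, and was not tested.

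Among 20 genes of efflux, esterification and oxysterols, the table held Soat2, an enzyme that esterifies cholesterol and is best known from liver and intestine. It had 8.38, 9.18 and 13.35 FPKM in OGD/R and 22.34, 39.07 and 34.01 FPKM in control replicates 1 to 3, a log2 difference of -1.53 ± 0.25 (SE, limma, adjusted p = 1.2e-03). OGD/R libraries were all below control libraries, with coefficients of variation of 25.9% in OGD/R and 27.0% in control. No gene of a list of 15 for the isoprenoid branch beside sterols was in the table.

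**Figure D3:**
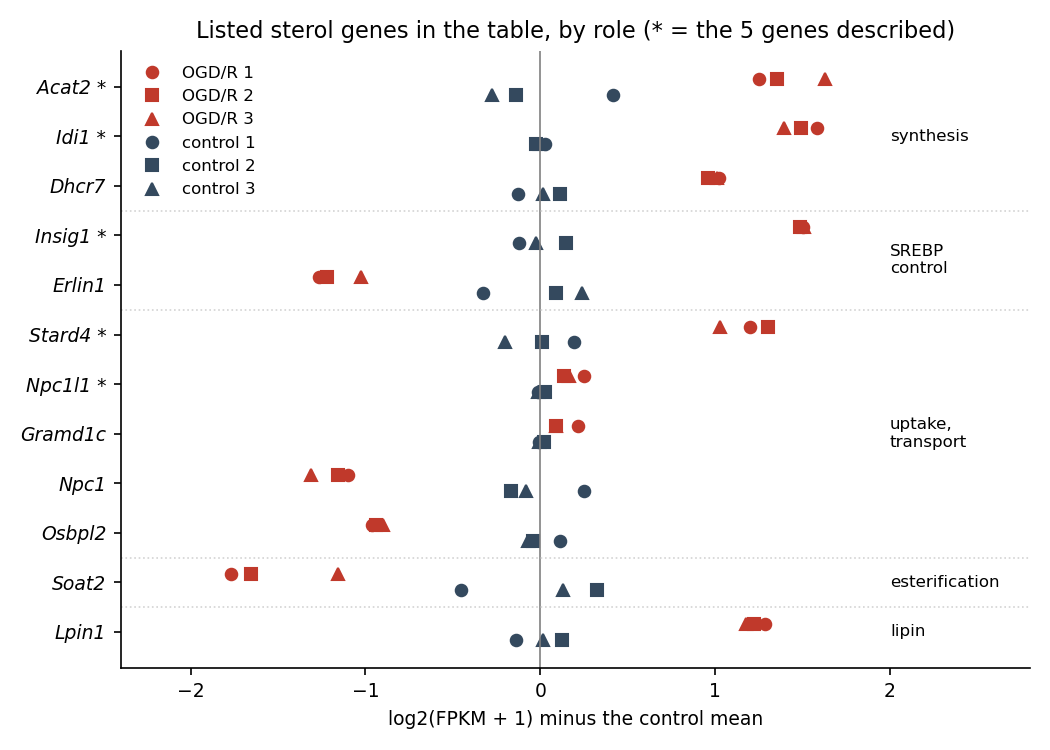
log2(FPKM + 1) minus the control mean for the 12 listed genes in the table, ordered by role, with Lpin1 from the fatty acid list. For each gene 3 OGD/R libraries in red lie above 3 control libraries in dark. Acat2, Idi1, Dhcr7, Insig1, Stard4 and Lpin1 lie to the right of their controls, Erlin1, Npc1, Osbpl2 and Soat2 to the left, and Npc1l1 and Gramd1c close to 0.

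The control libraries spread differently from gene to gene. Control replicate 1 was the highest control for Idi1, Acat2, Stard4, Npc1 and Osbpl2 and the lowest for Insig1, Erlin1, Soat2, Dhcr7 and Lpin1. In OGD/R, replicate 3 was the highest for Insig1, Acat2, Erlin1, Osbpl2 and Soat2 and the lowest for Idi1, Stard4, Npc1 and Lpin1. The part of these library differences in the group differences was not tested beyond leaving out each library.

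The profiles closest to each of the 4 tested genes were found among 851 other tested genes, as the root mean square difference of centred log2(FPKM + 1) values over the 6 libraries. Nearest to Insig1 were Kif20b at 0.0892, Hmmr at 0.0953 and Entpd1 at 0.0999, against a median of 1.11 over all tested genes. Nearest to Idi1 were Pde4b at 0.0453, Hmmr at 0.0495 and Kctd12 at 0.0628. Acat2 had looser neighbours, with Apold1 at 0.128, Bub1 at 0.168 and Arl4c at 0.175. Nearest to Stard4 were Pald1 at 0.0716, Ttc39b at 0.0728 and Cdca2 at 0.0758. Idi1 ranked 7 in likeness to Insig1, and Insig1 ranked 13 in likeness to Idi1, while the other pairs among the 4 genes ranked between 25 and 193. The measure follows mainly the size of the group difference on which the table was picked.

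The microglial label could be checked only in part. Of 24 microglial markers 4 were in the table, Cx3cr1, P2ry6, P2ry12 and Mef2c, and the other 20 are not analysed here. Their summed level was 20.0 to 24.8 FPKM in OGD/R and 9.72 to 11.6 FPKM in control. Most of that sum was Mef2c, with means of 18.4 FPKM in OGD/R and 8.95 FPKM in control. Of the markers, 3 of 3 tested were called higher, beside 46.6% of all tested genes. Cx3cr1 and P2ry6 passed the filter of 1 FPKM only through OGD/R, with means there of 1.77 and 1.72 FPKM. Their control means were 0.373 and 0.543 FPKM, so that count is no check of the label. P2ry13, a microglial gene that was not on the list and was looked up after values were seen, was lower in OGD/R. Its means were 0.713 FPKM in OGD/R and 1.48 FPKM in control. Of the markers of other brain and vessel cells, Vwf was at 1.10 to 1.74 FPKM in OGD/R and 3.22 to 4.40 FPKM in control, Tubb3 at 0.00 to 0.37 FPKM in OGD/R and 0.56 to 1.17 FPKM in control, and Cspg4 at 0.00 to 0.03 FPKM in OGD/R and 0.08 to 0.09 FPKM in control. The table held 0 of 6 astrocyte markers, which says nothing about astrocytes, since genes that did not differ between the groups are missing from it. The part of these levels in the differences of the sterol genes was not tested.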

How the data were processed

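RNA of 3 OGD/R and 3 control libraries of Bv2 cells was sequenced as read pairs of 150 nt, per the labels' protocols. The authors deposited FPKM values to 2 decimals in 1 table of 1228 genes. Per the submitters' processing notes the build was GRCm38. No aligner, counting tool or annotation, and no rule for picking these genes, is given in the sources used here.

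The fit used limma 3.58.1 (R 4.3.3) on log2(FPKM + 1) for genes with a mean of at least 1 FPKM (group as the only factor, eBayes with trend, two-sided, Benjamini-Hochberg over 852 genes, threshold 0.05), and was first tested on simulated data. Counted units were recovered by seeking the library size at which low values became whole multiples of 1 unit, given merged exon lengths from GENCODE M21, which placed 1227 of the 1228 genes. This gave 8010000 to 8654000 units for OGD/R and 7616000 to 8246000 for control, with 97.9% to 100% of low values (under 12 units) whole within rounding error plus 0.03 units. A unit may be a read or a read pair. Intervals cover counting error only.

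The 5 genes and the lists were chosen with earlier results of these data known. Named genes are the 5, every listed sterol gene in the table and the 3 nearest profiles of each tested one, leaving out Gm, Rik and pseudogene symbols; Gm15956 and P2ry13 were added after their values were seen. Other steps ran in Python 3.11.15 (scipy 1.17.1, numpy 2.4.6, pandas 2.3.3, matplotlib 3.10.9).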

Additional observations from a re-analysis of the deposited data

How the results depend on the processing

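The alternatives covered the pseudocount, the filter, 2 scalings, the eBayes trend, a replicate block and each library left out in turn. The number of changed genes was 829; it was 409 with a filter of mean FPKM of at least 5, where fewer genes were tested, 835 with the replicate block, and 789 to 829 without any 1 replicate. The number of listed sterol genes called higher was 6, of which 4 were higher by choice (all 5 chosen genes enter where there is no filter); it was 8 with no filter on low values, 5 with the filter of at least 5 FPKM, 6 with the replicate block, and 6 to 6 without any 1 replicate. All 17 named genes outside the 5 that were tested kept their direction and their side of the threshold in every alternative run. Little is read from this, since 97.3% of all tested genes were called in the main fit and the nearest profiles were picked for a like difference. The groups share replicate numbers, but the labels name no batch, and the numbers were not taken as pairs. Deviations from the group means correlated at 0.43, -0.35 and 0.38 between libraries of the same number, which does not decide whether they were pairs. None of the 5 genes changed direction. With a pseudocount of 0.01 the log2 difference was 1.60 for Insig1, 1.60 for Idi1 and 3.26 for Npc1l1; with 0.1 it was 1.59 for Idi1 and 1.16 for Npc1l1, since a pseudocount of 1 shrinks differences. With quantile normalization it was 1.61 for Insig1 and 1.58 for Idi1 (the cause was not tested). Without any 1 replicate it was 1.44 to 1.57 for Insig1, 1.44 to 1.54 for Idi1, 1.27 to 1.62 for Acat2, 1.07 to 1.27 for Stard4 and 0.15 to 0.21 for Npc1l1. The highest value for Acat2 and for Stard4 came without control replicate 1. Depth limits Npc1l1 and Gramd1c, which rest on 16 and 13 units in OGD/R and 1 each in control.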
